A study of Mus musculus with 11 samples.

Results

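The genes described here encode the proteins that build the messenger RNA cap and the nuclear complex that binds it, together with the helicase partner of the cap methyltransferase that the study targeted. The 9 members, Rngtt, Rnmt, Ramac, Cmtr1, Cmtr2, Pcif1, Ncbp1, Ncbp2 and Dhx15, were taken by symbol from 54838 counted genes. The rule that names them rests on their roles and uses no measured value, but it was set with earlier results of these data known. All 9 were above 1 CPM (reads of the gene per 1000000 counted reads) in at least 4 libraries, the minimum that left 16073 genes for testing.

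RNA polymerase II transcripts receive a cap while they are still short. RNGTT removes a phosphate from the start of the transcript and attaches the guanosine, RNMT methylates that guanosine with the help of its activating subunit RAMAC, CMTR1 methylates the ribose of the first transcribed nucleotide, and CMTR2 does the same on the second. PCIF1 adds a methyl group to the base of a first nucleotide that is adenosine, NCBP1 and NCBP2 hold the finished cap in the nucleus, and the RNA helicase DHX15 binds the G-patch domain of CMTR1. The study reports that binding between DHX15 and CMTR1 was minimal in embryonic stem cells.

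Total RNA was sequenced from E14, an established line of mouse embryonic stem cells kept in medium with leukaemia inhibitory factor. The cells had been transfected for 36 h with a control siRNA (3 libraries), CMTR1 siRNA 1 (4 libraries) or CMTR1 siRNA 2 (4 libraries), so every group, controls included, carried an siRNA. Ribosomal RNA was depleted and the libraries were made with a strand-marking kit. The study's methods describe biological replicates, fewer of them than the libraries labelled for each CMTR1 siRNA, and the labels do not say which libraries came from separate cultures. The tests therefore measure the spread between these libraries, part of which may be technical. CMTR1 protein is not measured in count data, and the siRNAs were each used in this 1 cell line.

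Reads assigned to genes numbered 6738478 to 8382318 per library. All 5 pluripotency markers examined were present, with a summed level of 1055 to 1160 CPM in the control libraries, 900 to 1019 CPM in those labelled CMTR1 siRNA 1 and 958 to 995 CPM in those labelled CMTR1 siRNA 2. One transcript, Gm26917, held from 4.87% to 6.34% of the reads, and leaving it out of the library sizes ended no call on a member.

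The annotated transcript starts of the 3 enzymes that modify the first nucleotides are shown because those nucleotides are the substrate of the same enzymes. Each window holds 20 bases before the start and 10 from it, on the plus strand of GRCm38.p6 as RefSeq gives it, with the first and second transcribed nucleotides in capitals.
Cmtr1, chr17:29660575-29660604: ggcggggctggcgggctcgtGAcgttatca
Cmtr2, chr8:110217940-110217969: gaggagacgccacccccggaAGctgttccc
Pcif1, first start, chr2:164879348-164879377: ggtaccgacgcatgcgcagcGCggagtccc
Pcif1, second start, chr2:164880032-164880061: ccgagttccgctgcttgcgcAGatacagtt
Cmtr1 and the first Pcif1 entry begin with G, as 35.6% of the 32851 RefSeq entries do, whereas Cmtr2 and the second Pcif1 entry begin with A, as 34.4% do. The GENCODE annotation used for coordinates begins Cmtr2 earlier, at chr8:110215665, and Pcif1 earlier, at chr2:164879304, so the windows do not show every annotated start. The counts are summed over whole genes and do not show which start was used or how it was methylated.

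The members spanned a wide range of levels. Divided by the length of all annotated exons, Dhx15 had the highest level in the control libraries at 43.3 ± 1.76 CPM per kb (SD, n = 3), followed by the cap-binding subunits Ncbp1 at 39.2 ± 0.381 and Ncbp2 at 25.0 ± 0.668. Rnmt came next at 14.9 ± 0.207 CPM per kb, then Rngtt at 10.96 ± 0.238, Ramac at 7.21 ± 0.0774 and Pcif1 at 6.53 ± 0.145. The ribose methyltransferases had the lowest levels, with Cmtr2 at 2.69 ± 0.255 CPM per kb and Cmtr1 at 2.09 ± 0.216, so that the mean of Dhx15 was 20.7 times that of Cmtr1.

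The order of the means over all annotated exons was the same in all 3 groups. Neighbours in that order did not overlap among the control libraries, but over all 11 libraries Dhx15 (40.6 to 45.4 CPM per kb) overlapped Ncbp1 (37.8 to 41.7), and Ramac (5.87 to 8.87) overlapped Pcif1 (5.49 to 6.66). Cmtr2 and Cmtr1 lay close, from 2.27 to 2.96 and from 1.61 to 2.23 CPM per kb. Exon length was taken over all transcripts, 17 of them for Cmtr1, and a gene whose long isoforms are little used is set too low on this scale. Over the 6.195 kb of Cmtr1 exons free of other genes on its strand, a length chosen after seeing the data, its control level was 3.28 ± 0.339 CPM per kb, above Cmtr2, and the mean of Dhx15 was 13.2 times that of Cmtr1. The order of Cmtr1 and Cmtr2 therefore depends on the length used. Only 2355 bases of Cmtr1 exons are free of genes on both strands, and whether the counting used strand is not given. Levels over that shorter length were not computed, so the place of Cmtr1 among the other members may also depend on the length.

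**Figure D1:**
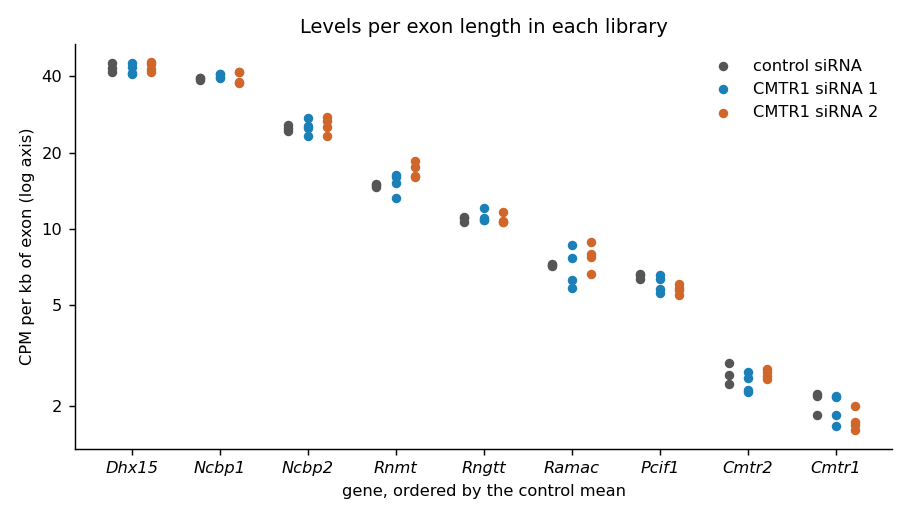
Level of each gene per kb of annotated exon, on a log axis, with 1 point per library coloured by siRNA group and genes ordered by the control mean. Dhx15 and Ncbp1 lie near 40 CPM per kb and Cmtr1 and Cmtr2 near 2 CPM per kb, and the groups lie on top of each other for most genes.

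Cmtr1, the target of both siRNAs, was read first as a check of the labels. Its level was 21.3, 21.7 and 17.9 CPM in the control libraries, 21.1, 21.3, 16.2 and 18.04 CPM in the libraries labelled CMTR1 siRNA 1, and 15.6, 16.8, 16.4 and 19.5 CPM in those labelled CMTR1 siRNA 2. The 3 groups overlapped, and 2 of the libraries labelled CMTR1 siRNA 1 were at the level of the higher control libraries. Each library held from 110 to 176 Cmtr1 reads.

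For CMTR1 siRNA 1 the Cmtr1 level was 94.1% of control (95% interval 81.2% to 109%, edgeR quasi-likelihood FDR = 0.743), and for CMTR1 siRNA 2 it was 84.3% of control (95% interval 72.6% to 97.8%, unadjusted p = 0.0257, edgeR FDR = 0.144). Neither comparison passed the FDR threshold of 0.05. Total Cmtr1 reads under 81.2% of control with CMTR1 siRNA 1, or under 72.6% with CMTR1 siRNA 2, lay outside those intervals. Between the siRNAs, the level with CMTR1 siRNA 2 was 89.5% of that with CMTR1 siRNA 1 (95% interval 77.7% to 103%, edgeR FDR = 0.387). In RNA from whole cultures, fewer cells that carry a transcript and less of it per cell cannot be told apart, so the values are averages over all cells taken. Whether full-length Cmtr1 mRNA differed between the groups was not tested, since the counts are summed over all transcripts.

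The counts at the Cmtr1 locus carry a limit of their own. Cmtr1 (ENSMUSG00000024019) lies on the plus strand at chr17:29660595-29705979 of GRCm38, and only 63.7% of its exon bases are free of another gene on that strand, falling to 24.2% when the antisense gene Ccdc167 is included. Gm28043, an overlapping gene on the same strand, held 24 to 50 reads per library, and Gm28052, the other such gene, held none in any library, which allows up to 3 reads per library. Gm28043 read 4.83, 4.93 and 6.73 CPM in control libraries, 5.64, 5.23, 3.17 and 6.55 CPM with CMTR1 siRNA 1 and 5.40, 5.49, 6.74 and 4.69 CPM with CMTR1 siRNA 2, with all groups overlapping.

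With the overlapping genes added to Cmtr1, the locus summed to 25.8 ± 1.05 CPM in control libraries (SD, n = 3), 24.3 ± 3.41 CPM with CMTR1 siRNA 1 (n = 4) and 22.7 ± 1.35 CPM with CMTR1 siRNA 2 (n = 4). The log2 fold change of this sum for CMTR1 siRNA 2 against control was -0.18 ± 0.095 (SE, edgeR FDR = 0.230). Whether the counting used the strand of the reads is not given in the sources used here.

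Rngtt, which starts the cap, had group means of 77.8 ± 1.69 CPM in control libraries (SD, n = 3), 79.5 ± 4.07 CPM with CMTR1 siRNA 1 (n = 4) and 77.6 ± 3.45 CPM with CMTR1 siRNA 2 (n = 4). It read 78.5, 75.9 and 79.0 CPM in control libraries, 77.2, 77.2, 85.6 and 78.2 CPM with CMTR1 siRNA 1, and 75.4, 75.8, 76.4 and 82.7 CPM with CMTR1 siRNA 2. In each siRNA group 1 library stood above the others, and the groups overlapped. The log2 fold change was 0.033 with CMTR1 siRNA 1 (95% interval -0.086 to 0.15, edgeR FDR = 0.842) and -0.0023 with CMTR1 siRNA 2 (95% interval -0.12 to 0.12, edgeR FDR = 0.990).

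Rnmt, the guanosine methyltransferase, was the only member called in any comparison. Its levels were 111, 109 and 108 CPM in control libraries, 97.2, 112, 118 and 120 CPM with CMTR1 siRNA 1, and 129, 118, 119 and 136 CPM with CMTR1 siRNA 2. Every library labelled CMTR1 siRNA 2 lay above every control library, whereas the libraries labelled CMTR1 siRNA 1 lay on both sides of the controls. The means were 109 ± 1.52 CPM (SD, n = 3), 112 ± 10.3 CPM (n = 4) and 126 ± 8.62 CPM (n = 4).

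Rnmt thus rose to 115% of control with CMTR1 siRNA 2 (95% interval 106% to 125%), a log2 fold change of 0.20 ± 0.060 (SE, edgeR FDR = 0.0251). With CMTR1 siRNA 1 it was at 102% of control (95% interval 94.1% to 112%, edgeR FDR = 0.835). The difference between the siRNAs, a log2 value of 0.17 ± 0.055, missed the threshold (unadjusted p = 0.00449, edgeR FDR = 0.0558). That difference was called in 7 of 19 alternative settings, among them the exact test that the study's methods name (FDR = 0.0477) and no filter on low counts (FDR = 0.0415), and its FDR ranged from 0.0309 to 0.286 over the 19.

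The call on Rnmt was a close one. It was lost with TMM scaling (log2 fold change 0.18, edgeR FDR = 0.0556) and with DESeq2 (log2 fold change 0.17, FDR = 0.134). With replicate number added to the model it was also lost (log2 fold change 0.16, edgeR FDR = 0.0822). It was kept with edgeR's exact test, which the study's methods name (FDR = 0.0192). In all, the call held in 11 of 19 alternative settings. Without control replicate 1, 2 or 3 the FDR was 0.0508, 0.0816 and 0.102, and without CMTR1 siRNA 2 replicate 1 or 4 it was 0.0700 and 0.102. The log2 fold change stayed between 0.16 and 0.23 over all 11 libraries left out in turn. Fits without a CMTR1 siRNA 1 library left it at 0.20, since those libraries do not enter this fold change. The spread of Rnmt among the control libraries, a coefficient of variation of 1.39%, was below the 3.42% that counting alone gives, whereas within CMTR1 siRNA 2 it was 6.87% against 3.21% and within CMTR1 siRNA 1 it was 9.22% against 3.46%.

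One of 4 fibroblast markers, Col1a1, also rose with CMTR1 siRNA 2 (log2 fold change 0.75 ± 0.13, SE, edgeR FDR = 6.42e-05). All 4 markers had reads in every library, and their summed level was 36.3 to 44.4 CPM in control libraries, 34.8 to 48.7 CPM with CMTR1 siRNA 1 and 45.3 to 49.99 CPM with CMTR1 siRNA 2. Their part in the Rnmt value was not tested. Of the 5 pluripotency markers, 4 were called lower with CMTR1 siRNA 1, namely Pou5f1, Nanog, Zfp42 and Esrrb. With CMTR1 siRNA 2, 3 were called lower, namely Nanog, Zfp42 and Esrrb, and none rose with either siRNA. Of the 16073 tested genes, 316 and 571 were called lower in these comparisons. The edgeR FDR of the markers called ran from 5.44e-05 (Nanog) to 0.0332 (Pou5f1) with CMTR1 siRNA 1. With CMTR1 siRNA 2 it ran from 6.84e-08 (Esrrb) to 0.0012 (Zfp42). None of the 5 markers of differentiated lineages was called against control, and their sum ranged from 43.3 to 72.0 CPM over all libraries. Pax6, 1 of those 5, was lower with CMTR1 siRNA 2 than with CMTR1 siRNA 1 (log2 difference -0.68 ± 0.13, SE, edgeR FDR = 0.000313).

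**Figure D2:**
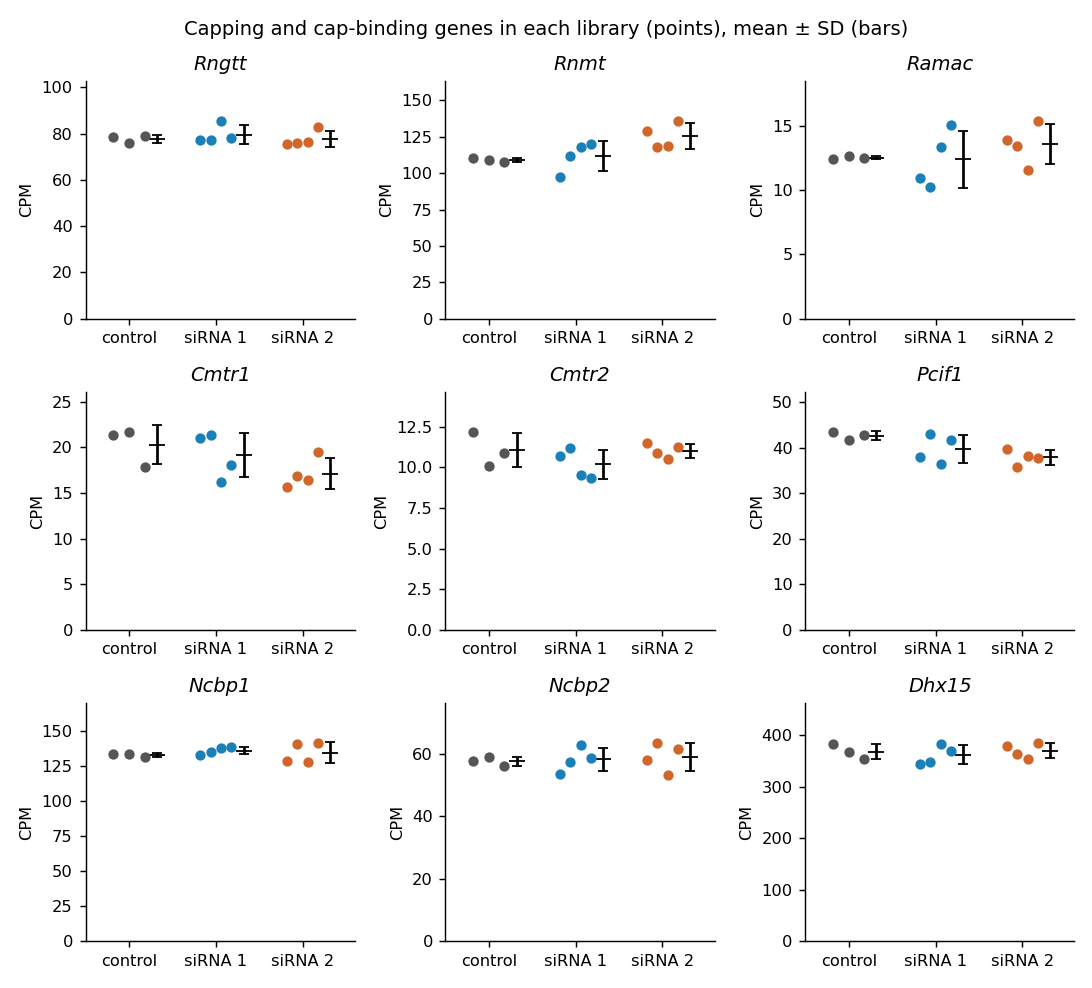
CPM of each gene on a linear axis from 0, with 1 point per library and bars for the mean ± SD of 3 control, 4 CMTR1 siRNA 1 and 4 CMTR1 siRNA 2 libraries. Rnmt with CMTR1 siRNA 2, at 118 to 136 CPM, lies above all control libraries, and Pcif1 with that siRNA lies below them, while the libraries of the other genes overlap control.

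Ramac, the activating subunit of RNMT, was scarce and variable. It read 12.4, 12.7 and 12.5 CPM in control libraries, 10.98, 10.2, 13.3 and 15.1 CPM with CMTR1 siRNA 1, and 13.9, 13.5, 11.6 and 15.4 CPM with CMTR1 siRNA 2. The siRNA libraries fell on both sides of the controls. Its log2 fold change was -0.017 with CMTR1 siRNA 1 (95% interval -0.28 to 0.24, edgeR FDR = 0.968) and 0.12 with CMTR1 siRNA 2 (95% interval -0.14 to 0.37, edgeR FDR = 0.620), so a change of the size found for Rnmt was not excluded by either interval. Of the 75-base words in Ramac exons, 36.0% occur in other annotated genes, among them Olfr482 and Gm9830, so its count may be incomplete.

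Cmtr2, which methylates the second nucleotide, was the member with fewest reads, 70 to 96 per library. Its levels were 12.2, 10.1 and 10.9 CPM in control libraries, 10.7, 11.2, 9.51 and 9.36 CPM with CMTR1 siRNA 1, and 11.5, 10.9, 10.5 and 11.2 CPM with CMTR1 siRNA 2. All groups overlapped. The Cmtr2 level was 92.2% of control with CMTR1 siRNA 1 (95% interval 77.2% to 110%, edgeR FDR = 0.707) and 99.6% of control with CMTR1 siRNA 2 (95% interval 83.8% to 118%, edgeR FDR = 0.989).

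Pcif1, the cap-adjacent adenosine methyltransferase, read 43.5, 41.7 and 42.9 CPM in control libraries, 38.0, 43.1, 36.5 and 41.7 CPM with CMTR1 siRNA 1, and 39.8, 35.9, 38.3 and 37.8 CPM with CMTR1 siRNA 2. Every library labelled CMTR1 siRNA 2 lay below every control library, and the CMTR1 siRNA 1 libraries overlapped the controls. The level with CMTR1 siRNA 2 was 88.7% of control (95% interval 80.2% to 98.1%), but this did not pass the test over all genes (unadjusted p = 0.0210, edgeR FDR = 0.127). With CMTR1 siRNA 1 it was 93.4% of control (95% interval 84.4% to 103%, edgeR FDR = 0.532). The antisense gene Zfp335 covers part of the Pcif1 exons and leaves 83.1% of their bases free of other genes.

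Neither nuclear cap-binding subunit passed in any comparison. Ncbp1 read 134, 133 and 131 CPM in control libraries, 133, 135, 138 and 138 CPM with CMTR1 siRNA 1, and 128, 140, 128 and 141 CPM with CMTR1 siRNA 2. Ncbp2, the subunit that contacts the cap itself, read 57.6, 59.2 and 56.1 CPM in control libraries, 53.7, 57.6, 63.0 and 58.8 CPM with CMTR1 siRNA 1, and 58.1, 63.6, 53.4 and 61.5 CPM with CMTR1 siRNA 2. For Ncbp1, 3 of the 4 CMTR1 siRNA 1 libraries lay above all controls and the CMTR1 siRNA 2 libraries lay on both sides. The Ncbp2 libraries of both siRNAs lay on both sides of the controls.

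The 95% intervals for Ncbp1 ran from 95.3% to 110% of control with CMTR1 siRNA 1 and from 94.4% to 109% with CMTR1 siRNA 2 (edgeR FDR = 0.804 and 0.869). For Ncbp2 they ran from 92.1% to 111% and from 93.6% to 113% (edgeR FDR = 0.940 and 0.784). Pooled within groups, the coefficient of variation of Ncbp1 was 3.57%, the smallest of the 9 members, against 3.12% from counting alone.

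Dhx15, the helicase partner, was the most counted member, with 2326 to 3120 reads per library. It read 384, 367 and 354 CPM in control libraries, 345, 349, 384 and 371 CPM with CMTR1 siRNA 1, and 378, 364, 353 and 385 CPM with CMTR1 siRNA 2. The groups covered nearly the same range. The level was 98.3% of control with CMTR1 siRNA 1 (95% interval 92.2% to 105%, edgeR FDR = 0.854) and 101% of control with CMTR1 siRNA 2 (95% interval 94.3% to 107%, edgeR FDR = 0.941). Its spread within groups, 4.39%, was 2.32 times the counting error, so its interval is wider than counting alone would give.

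**Figure D3:**
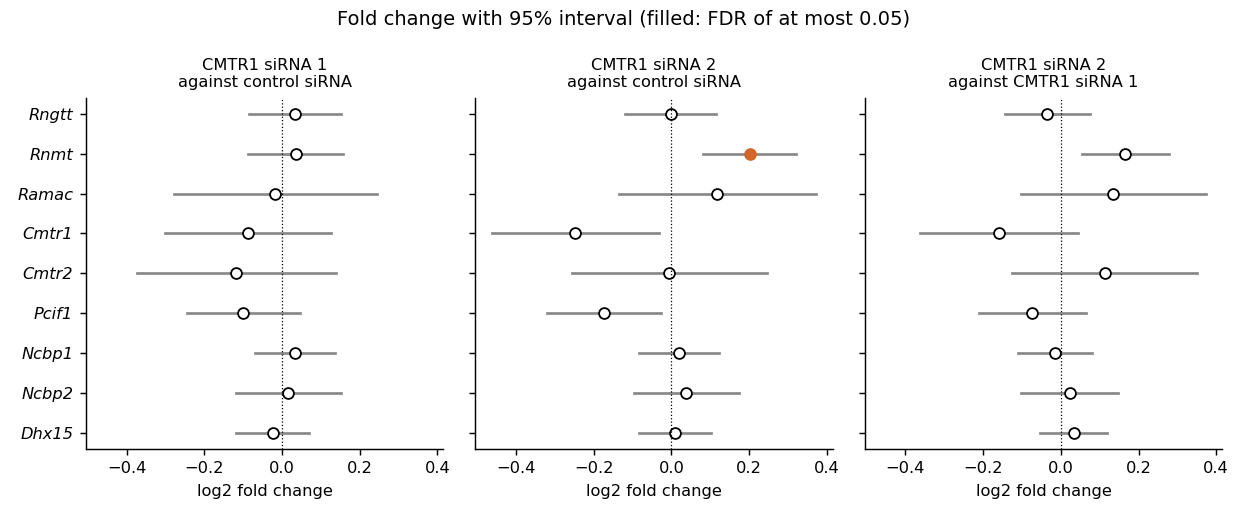
Log2 fold change of each gene in the 3 comparisons (points) with the 95% interval (lines), filled where the FDR was at most 0.05. Rnmt with CMTR1 siRNA 2 against control, at 0.20, is the only filled point, and the intervals are widest for Cmtr1, Cmtr2 and Ramac.

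Counted over the members, 0 of 9 passed the FDR threshold for CMTR1 siRNA 1 against control, where 4.67% of the 16073 tested genes passed (751 by edgeR's quasi-likelihood test), and 0 of 9 had an unadjusted p under 0.05, against 16.8% of tested genes. For CMTR1 siRNA 2 against control 1 of 9 passed, Rnmt, where 9.72% of tested genes did (1562), and 3 of 9 had an unadjusted p under 0.05, against 23.2%, with Rnmt above control and Cmtr1 and Pcif1 below. For CMTR1 siRNA 2 against CMTR1 siRNA 1 the count was 0 of 9 where 7.44% of tested genes passed (1196), with 1 of 9, Rnmt, at an unadjusted p under 0.05, against 21.1%.

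The counts of libraries that did not overlap were similar in kind. With CMTR1 siRNA 1 none of the 9 members had all libraries on one side of the controls, against 15.5% of tested genes, and with CMTR1 siRNA 2 there were 2 of 9, Rnmt and Pcif1, against 19.4%. Between the siRNAs there were 0 of 9 against 11.8%. The median log2 fold change of the members was -0.017, 0.009 and 0.022 in the 3 comparisons, beside 0.024, 0.029 and 0.002 over all tested genes.

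Ratios of reads between partners do not depend on library scaling and were compared next. Rnmt had 8.70 ± 0.174 reads for each Ramac read in control libraries (SD, n = 3), 9.14 ± 1.26 with CMTR1 siRNA 1 (n = 4) and 9.28 ± 0.692 with CMTR1 siRNA 2 (n = 4). Ncbp1 had 2.30 ± 0.0449, 2.34 ± 0.119 and 2.28 ± 0.0914 reads for each Ncbp2 read in the same groups. The ratio of the cap-binding subunits lay between 2.18 and 2.48 in every library.

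Cmtr1 had 1.85 ± 0.266 reads for each Cmtr2 read in control libraries, 1.88 ± 0.116 with CMTR1 siRNA 1 and 1.55 ± 0.155 with CMTR1 siRNA 2. Between the siRNAs this log2 ratio was lower by 0.28 with CMTR1 siRNA 2 than with CMTR1 siRNA 1, the difference with the smallest p of the 12 ratio tests (two-sided exact permutation test, p = 0.0571, adjusted p = 0.457). For each Dhx15 read there were 0.0551 ± 0.00432, 0.0533 ± 0.00936 and 0.0462 ± 0.00383 Cmtr1 reads. A test of 4 against 3 libraries cannot give an exact p below 0.0571, and 4 against 4 cannot go below 0.0286, and adjusted over the 12 tests no p could fall below 0.0571, so none of these ratio tests could have passed at 0.05.

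**Figure D4:**
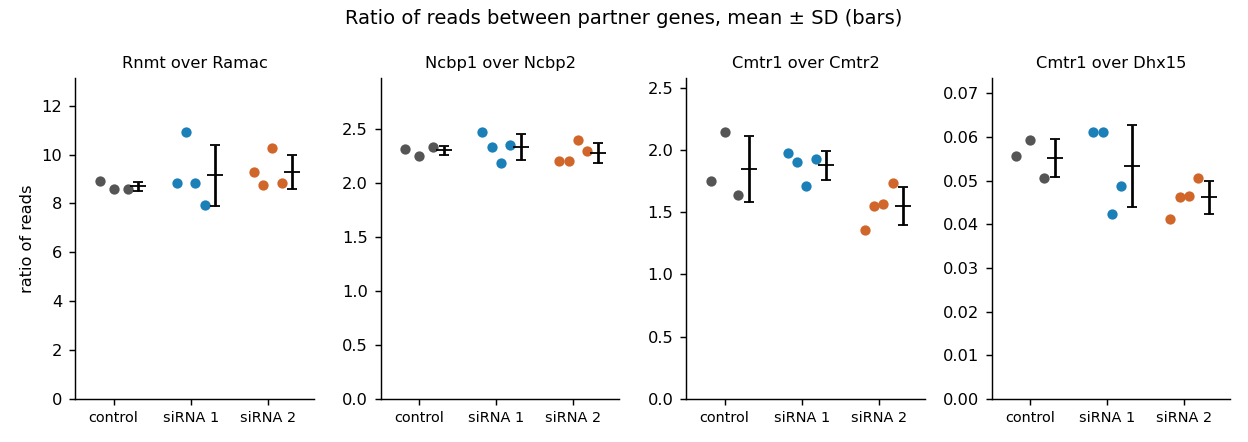
Reads of 1 gene divided by reads of its partner in each library (points), on linear axes from 0, with bars for the mean ± SD per group. The Ncbp1 to Ncbp2 ratio stays within 2.18 and 2.48, and the Cmtr1 to Cmtr2 ratio is lowest on average, at 1.55, with CMTR1 siRNA 2.

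Among 6173 genes with a mean log2 CPM of at least 5, those whose log2 CPM followed Cmtr1 closely over the 11 libraries included Zfp692 (Pearson r = 0.848), Abhd13 (r = 0.834), Atp6v0b (r = 0.820) and Stx5a (r = 0.817). They come from the top of a long ranking over few libraries and share the libraries' depth, and no p was computed. The other 8 members had r with Cmtr1 between -0.522 (Rnmt) and 0.513 (Pcif1).

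Other genes of the cap pathway were read from 7 lists holding 52 genes, all tested. Of the 52, 5 (9.62%) were called with CMTR1 siRNA 1 against control, 2 (3.85%) with CMTR1 siRNA 2 against control and 3 (5.77%) between the siRNAs. Over all tested genes the shares called were 4.67%, 9.72% and 7.44%. None of the 7 partners of the nuclear cap complex, the 4 cytoplasmic cap-binding proteins, the 5 enzymes and adaptors of small RNA caps or the 6 factors that bring the capping enzymes to RNA polymerase II was called by edgeR's quasi-likelihood test in any of the 3 comparisons. Eif4e, which binds the cap at the start of translation, came closest, at 137 ± 6.57 CPM in control libraries, 136 ± 12.8 CPM with CMTR1 siRNA 1 and 153 ± 9.21 CPM with CMTR1 siRNA 2 (edgeR FDR = 0.0507 between the siRNAs).

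Of the 4 genes listed under methyl donor supply, 3 were called with CMTR1 siRNA 1, 2 lower and 1 higher, where 4.67% of tested genes were. With CMTR1 siRNA 2, 1 was called, where 9.72% of tested genes were. The list was chosen with earlier results of these data known, so these counts are not independent of them. Ahcy, which clears the S-adenosylhomocysteine left by methyltransferases, ranged from 84.7 to 90.9 CPM in control libraries, 68.5 to 73.8 CPM with CMTR1 siRNA 1 and 67.2 to 77.5 CPM with CMTR1 siRNA 2. The siRNA libraries all lay below the controls. Ahcy fell by 0.31 on the log2 scale with CMTR1 siRNA 1 (SE 0.060, edgeR FDR = 0.000661) and by 0.28 with CMTR1 siRNA 2 (SE 0.059, edgeR FDR = 0.00130), and both calls stayed under each of 19 alternative settings.

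Mat2a, which makes S-adenosylmethionine, ranged from 552 to 603 CPM in control libraries, 477 to 505 CPM with CMTR1 siRNA 1 and 538 to 584 CPM with CMTR1 siRNA 2. It fell by 0.20 on the log2 scale with CMTR1 siRNA 1 (SE 0.043, edgeR FDR = 0.00214) and did not pass with CMTR1 siRNA 2 (log2 fold change -0.029, edgeR FDR = 0.741). This difference between the siRNAs was itself called, at 0.17 on the log2 scale (SE 0.040, edgeR FDR = 0.00391). Ahcyl1, a relative of Ahcy, rose by 0.18 on the log2 scale with CMTR1 siRNA 1 (edgeR FDR = 0.0236), a call lost in 7 of 19 settings, TMM scaling and DESeq2 among them.

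Of the 7 cap removal genes, Dcp2, the decapping enzyme, fell with CMTR1 siRNA 1 to 206 ± 9.83 CPM from 230 ± 4.34 CPM in control libraries (edgeR FDR = 0.0340) and was higher with CMTR1 siRNA 2, at 231 ± 9.72 CPM, than with CMTR1 siRNA 1 (edgeR FDR = 0.0121). Its activator Dcp1a rose from 90.9 ± 3.62 CPM in control libraries to 104 ± 6.79 CPM with CMTR1 siRNA 2 (edgeR FDR = 0.0227). The Dcp2 call against control was lost in 6 of 19 settings, without control replicate 1, 2 or 3 or CMTR1 siRNA 1 replicate 1, 2 or 4. Only CMTR1 siRNA 1 replicate 3 could be left out of the groups compared without losing it. The Dcp2 call between the siRNAs was lost in 2 of 19, and the Dcp1a call in 6 of 19, TMM scaling and DESeq2 among them.

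Of the 19 G-patch proteins listed, from a family that includes activators of DHX15 and to which CMTR1 belongs, Gpatch2 alone was called. It rose from 49.5 ± 3.26 CPM in control libraries to 58.0 ± 3.66 CPM with CMTR1 siRNA 1 (edgeR FDR = 0.0374) and was lower with CMTR1 siRNA 2, at 50.2 ± 2.46 CPM, than with CMTR1 siRNA 1 (edgeR FDR = 0.0304). The call against control was lost in 7 of 19 settings. These were TMM scaling, DESeq2 and fits without control replicate 1 or 2 or CMTR1 siRNA 1 replicate 1, 2 or 4. The call between the siRNAs was lost in 6 of 19, DESeq2 among them.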

How the data were processed

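The authors trimmed reads with Cutadapt, aligned them to GRCm38 with STAR, removed PCR duplicates with Picard and counted reads per gene with featureCounts. The methods do not say whether duplicates were also removed from the RNA libraries, and versions, annotation and strand setting are not given in the sources used here. The deposited files hold raw whole-number counts per Ensembl gene, 1 file per library. In 10 files summary lines follow the genes, in the style of HTSeq, although the methods name featureCounts. They put 39.3% to 44.3% of the listed reads in no feature and 0.963% to 1.05% in more than 1. These lines were left out. Symbols, coordinates and exon lengths came from GENCODE M21 (54809 of 54838 IDs matched).

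Genes above 1 CPM in at least 4 of 11 libraries were tested with edgeR 4.0.16 (R 4.3.3), scaled to total counts. One quasi-likelihood model held 3 groups, with Benjamini-Hochberg FDR over 16073 genes and a threshold of 0.05. The SE is the fold change divided by the root of F, and 95% intervals use the t distribution with the test's degrees of freedom. The fit was tested on simulated counts. Partner ratios were compared by two-sided exact permutation tests (scipy), adjusted over 12 tests. Totals of 6738478 to 8382318 reads limit precision, and counting error is 1 over the root of the reads. No pair of libraries in a group agreed within sampling noise (chi-square per degree of freedom 1.29 to 2.82).

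Alternatives were TMM, library sizes without Gm26917, DESeq2 1.42.0 without independent filtering, edgeR's exact test, no filter, over 1 CPM in all 11 libraries, fits of only the groups compared, a replicate block, each library left out, and overlapping genes added to Cmtr1. The labels give 4 libraries for each CMTR1 siRNA. All members, Gm28043, Gm28052, the 5 genes most like Cmtr1 and every called gene of the lists were to be named, and 1 of those 5 is not reported here. The members and lists were chosen with earlier results of these data known. Applying the alternatives to the list genes was added after seeing the data. A fit without a library of the group not compared hardly moves a fold change, so counts over 19 settings can overstate how stable a call was. Sequences of the siRNAs are not reported here.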

Additional observations from a re-analysis of the deposited data

Results flagged for a closer look

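Rngtt had 1 library apart from the other 3 in each siRNA group, 85.6 CPM among the CMTR1 siRNA 1 libraries and 82.7 CPM among those of CMTR1 siRNA 2. The gap to the next library was 0.876 and 0.862 of the group's whole range, above Dixon's 95% critical value for groups of 4 libraries. Chance flags about 1 in 20 groups, and 28 groups of 4 were examined. They were replicate 3 of CMTR1 siRNA 1 and replicate 4 of CMTR1 siRNA 2, and Rngtt was called neither with nor without them.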

How the results depend on the processing

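The single member called for CMTR1 siRNA 2 against control (Rnmt) became 0 with TMM, DESeq2 and the replicate block (log2 fold change 0.16, FDR = 0.0822) and 0 to 1 with a library left out. Between the siRNAs the 0 members called became 1 (Rnmt) with no filter, the exact test and the replicate block, and 0 to 1 with a library left out. The count for CMTR1 siRNA 1 against control was 0 in every setting run. Over all genes, DESeq2 called 450, 874 and 674 in the 3 comparisons against 751, 1562 and 1196, and leaving out a library gave 355 to 850, 807 to 1667 and 724 to 1374. TMM moved the called genes that were higher from 57.9% to 46.4% with CMTR1 siRNA 1 and from 63.4% to 49.8% with CMTR1 siRNA 2, and DESeq2 moved them to 37.8% and 44.6%.

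Same-numbered libraries did not deviate together (r from -0.078 to 0.0835 over 10 pairs). These correlations span all tested genes and carry counting noise, so pairing by number was not shown but is not excluded. Members near 0 changed sign, none of them called. For CMTR1 siRNA 1, Rnmt was -0.0043 with the replicate block, and Ncbp2 was -0.0036 with TMM and -0.0075 with DESeq2. For CMTR1 siRNA 2, Cmtr2 was 0.012 with the replicate block, Ncbp1 was -0.0053 with TMM and -0.0094 with DESeq2, and Dhx15 was -0.016, -0.0067 and -0.020 with TMM, the replicate block and DESeq2. With a library left out, these log2 values crossed 0 without a call. For CMTR1 siRNA 1 against control they ranged from -0.0006 to 0.093 for Rnmt, -0.13 to 0.072 for Ramac, -0.0047 to 0.048 for Rngtt, -0.023 to 0.051 for Ncbp2 and -0.053 to 0.0067 for Dhx15. For CMTR1 siRNA 2 against control they ranged from -0.069 to 0.071 for Cmtr2, -0.035 to 0.011 for Rngtt, -0.0053 to 0.043 for Ncbp1 and -0.019 to 0.040 for Dhx15. Between the siRNAs they ranged from -0.068 to 0.0024 for Rngtt, -0.039 to 0.0087 for Ncbp1 and -0.016 to 0.068 for Ncbp2. Ratios for CMTR1 siRNA 1 against control ranged from -0.027 to 0.13 (Rnmt over Ramac), -0.008 to 0.052 (Ncbp1 over Ncbp2), -0.048 to 0.15 (Cmtr1 over Cmtr2) and -0.13 to 0.042 (Cmtr1 over Dhx15), and Rnmt over Ramac between the siRNAs from -0.036 to 0.12.

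Depth limits Cmtr1, Cmtr2 and Ramac most, with 70 to 176 reads per library. The causes were not tested.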
